A study of Homo sapiens with 6 samples.

Results

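SOX2 and 8 further genes of the SOX family, SOX4, SOX5, SOX9, SOX11, SOX12, SOX13, SOX15 and SOX18, are described here across 3 arrays of carbon-irradiated and 3 arrays of unirradiated myeloma cells. The 9 are among 18417 genes measured, and each was read from the single probe set that names it alone. They were selected on their level in unirradiated cells and on the irradiated minus unirradiated difference, so those values are given as a description, with no test. RPMI 8226 is an established human line of malignant plasma cells, grown here in culture. One group received 6 Gy of carbon ions, heavy charged particles that ionise densely where they pass, and the other 0 Gy. Total RNA was taken 1 day later and hybridised, biotin-labelled, to 1-colour arrays. The labels number the samples 1 to 3 in each group but name no separate cultures, so p-values rest on a spread among arrays that could be technical. Only this one line was studied.

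The SOX proteins are transcription factors that bind the minor groove of DNA through an HMG box, the domain they share with the sex-determining protein SRY, and bend the helix at short sites with the core CATTGT. They usually act beside a partner protein, such as a POU or PAX factor, and the partner helps to set which genes they control. Subgroups B to H are defined by sequence likeness. SOX2, of subgroup B1, maintains pluripotent and neural progenitor cells, and in patients with early plasma cell disease it is known as an antigen that T cells and antibodies recognise.

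The values are the authors' deposited probe set values, read as log2 intensities because they run from 1.66 to 14.02 over the arrays. The base of the logarithm is thus inferred, and every fold rests on it. Array medians were 5.66 to 5.72 on the irradiated and 5.64 to 5.67 on the unirradiated arrays. The table holds no detection calls, so whether a dim probe set lies above background is unknown. Precision is limited by having 3 arrays a group: the standard error (SE) of the log2 difference was 0.080 for the median gene. Of 12 plasma cell markers, 11 lay above the median gene in mean level, led by the immunoglobulin joining chain gene JCHAIN (12.76 to 12.92 on irradiated and 12.95 to 13.06 on unirradiated arrays). At a limma adjusted p under 0.05, 4 of the 12 were lower after irradiation and 1, the dim gene SLAMF7, was higher. Over all genes 8.18% were lower and 6.35% higher.

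The SOX2 gene had a far larger difference than the other 8, so its promoter is shown first. RefSeq promoters, from 250 bases before to 50 bases after the start site on GRCh38.p14, were given for 5 of the 9 genes: SOX2, SOX4, SOX5, SOX12 and SOX13. The 3 below stand for subgroups B1, C and D and hold different motifs. Capitals mark matches, on either strand, to the SOX core (CATTGT), the CCAAT box (CCAAT), the GC box (GGGCGG) and the TATA box (TATAAA). No matches overlapped one another. SOX2 lies on the plus strand at chr3:181711675-181711974, SOX4 on the plus strand at chr6:21593501-21593800 and SOX5 on the minus strand at chr12:24562442-24562741.
SOX2: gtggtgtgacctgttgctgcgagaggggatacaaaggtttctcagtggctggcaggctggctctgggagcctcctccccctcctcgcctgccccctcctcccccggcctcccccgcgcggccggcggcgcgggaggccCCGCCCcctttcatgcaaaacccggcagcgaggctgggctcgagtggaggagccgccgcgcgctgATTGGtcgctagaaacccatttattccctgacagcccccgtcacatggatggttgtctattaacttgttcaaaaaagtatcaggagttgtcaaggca
SOX4: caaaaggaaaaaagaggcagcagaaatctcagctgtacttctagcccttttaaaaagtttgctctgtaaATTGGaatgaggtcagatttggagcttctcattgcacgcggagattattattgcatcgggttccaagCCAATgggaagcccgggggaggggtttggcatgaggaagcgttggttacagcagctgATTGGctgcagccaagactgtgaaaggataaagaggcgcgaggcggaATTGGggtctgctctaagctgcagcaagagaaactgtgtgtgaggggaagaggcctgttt
SOX5: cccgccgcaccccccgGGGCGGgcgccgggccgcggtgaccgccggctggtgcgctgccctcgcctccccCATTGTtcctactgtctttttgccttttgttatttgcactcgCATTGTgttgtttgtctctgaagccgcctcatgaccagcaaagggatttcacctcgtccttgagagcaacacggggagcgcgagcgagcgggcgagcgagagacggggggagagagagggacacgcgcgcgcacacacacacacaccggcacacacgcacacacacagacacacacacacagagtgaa

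The SOX2 window held 1 CCAAT box, 1 GC box and 0 SOX cores. SOX4 had 4 CCAAT boxes and no GC box, and SOX5 had 2 SOX cores and 1 GC box. Among all 35116 promoters of this length, 10.8% held the SOX core, 34.6% the CCAAT box, 44.95% the GC box and 11.5% the TATA box. SOX5 was the only one of the 5 with a SOX core, SOX12 held 4 GC boxes and 1 CCAAT box, and SOX13 held 1 GC box. G and C made up 63.3% of the SOX2 window, 49.3% of that of SOX4 and 63.7% of that of SOX5, where the median promoter had 58.7%. A match is a description of the letters and not of a bound site.

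SOX2 mRNA was 2.24-fold higher in irradiated than in unirradiated cells. Its log2 values were 10.11, 10.26 and 9.93 on irradiated replicates 1 to 3, against 8.97, 8.94 and 8.90 on unirradiated replicates 1 to 3. The lowest irradiated value thus lay well above the highest unirradiated value, and the groups did not overlap. The means were 10.10 ± 0.17 after irradiation and 8.94 ± 0.035 without it (SD, n = 3), which is a log2 difference of 1.16 ± 0.088 (limma SE) with a 95% interval from 0.97 to 1.36. Most of the spread came from the irradiated arrays. Only 11 of the 18417 genes had a larger increase. SOX2 was also a bright gene, with a mean level over the arrays of both groups above 88.3% of genes measured. Its rank on the unirradiated arrays alone was not computed. More SOX2 mRNA in each cell and a larger share of cells that carry it cannot be told apart in RNA from a whole culture. With any 1 array left out the difference lay between 1.08 and 1.25.

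**Figure D1:**
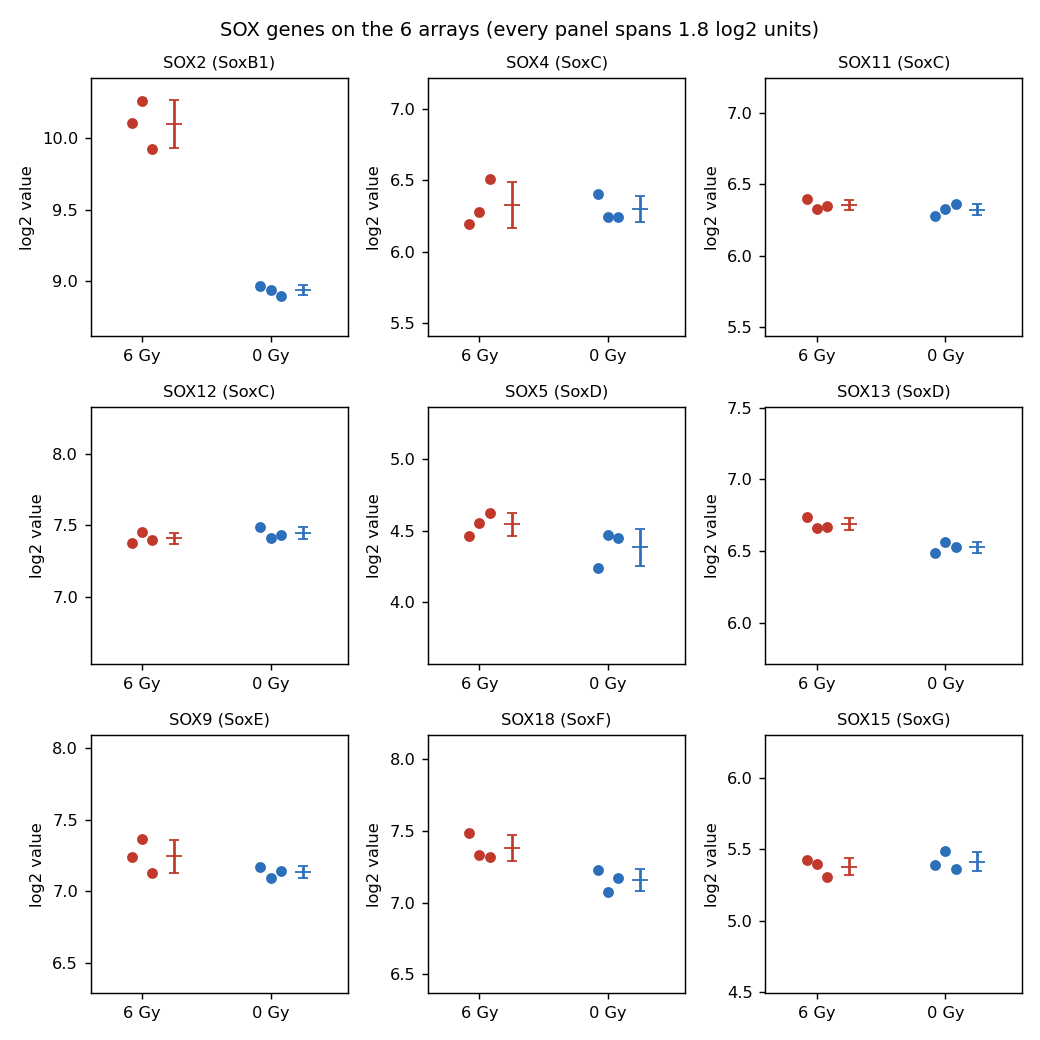
Log2 probe set values of the 9 SOX genes on each array, 1 panel per gene with its subgroup; the vertical axes span the same range in log2 units. Points are single arrays (red 6 Gy, blue 0 Gy) and the bar beside them is the mean ± SD of 3 arrays. SOX2 stands at 9.93 to 10.26 after 6 Gy and at 8.90 to 8.97 without irradiation, while the other panels show small shifts.

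Limma gave an adjusted p under 0.05 for 1 of the 9 genes, SOX2, where 14.5% of all genes had one. For 3 of the 9 genes, SOX2, SOX13 and SOX18, the irradiated values did not overlap the unirradiated values, against 34.7% of all genes. Both counts use the contrast on which the genes were selected, so nothing is read from them. The irradiated mean was higher for 7 of the 9 and lower for 2. The median log2 difference of the 9 was 0.11, where that of all genes was 0.039. The other 8 genes ranged from -0.038 to 0.22.

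The SoxC genes SOX4, SOX11 and SOX12 had small differences. SOX4, which early B cell precursors need, had values of 6.20, 6.28 and 6.51 on the irradiated arrays, against 6.40, 6.24 and 6.25 on the unirradiated arrays. The groups overlapped, and the irradiated array of replicate 3 was the highest of the 6. The log2 difference was 0.029, with a 95% interval from -0.18 to 0.24. SOX11, known as a marker of mantle cell lymphoma, lay between 6.33 and 6.40 on irradiated arrays and between 6.28 and 6.36 on unirradiated arrays. Its difference of 0.036 had an interval from -0.11 to 0.18. SOX12, a close relative of both, lay between 7.37 and 7.45 after irradiation and between 7.41 and 7.49 without it. The groups of both genes overlapped, and the SOX12 difference was -0.038 (interval -0.18 to 0.11). The sign of SOX4 and SOX12 changed with the processing, so neither has a direction here.

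The SoxD proteins, SOX5 and SOX13 among them, lack a domain that activates transcription and pair with one another through a coiled coil. SOX5, which works beside SOX9 in cartilage, had values of 4.46, 4.55 and 4.62 on irradiated arrays, against 4.24, 4.47 and 4.45 on unirradiated arrays. It was the only one of the 9 in the dimmest of 3 equal level classes of all genes, and its groups overlapped by a small margin. The difference was 0.16 (interval -0.025 to 0.35). SOX13, known from T cells of the gamma-delta lineage, had values of 6.74, 6.66 and 6.67 after irradiation, against 6.49, 6.56 and 6.53 without it. All 3 irradiated values lay above all 3 unirradiated values. Its difference was likewise 0.16 (interval 0.017 to 0.31), or 1.12-fold.

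SOX9, SOX18 and SOX15 stand for subgroups E, F and G. SOX9, the master regulator of cartilage and of testis formation, had values of 7.24, 7.37 and 7.13 on irradiated arrays and of 7.17, 7.09 and 7.14 on unirradiated arrays. These overlapped, and the difference was 0.11 (interval -0.064 to 0.28). SOX18, which directs the growth of blood and lymph vessels, had values of 7.49, 7.33 and 7.32 after irradiation, against 7.22, 7.08 and 7.17 without it. The groups did not overlap, and the difference of 0.22 (interval 0.053 to 0.39), or 1.17-fold, was the second largest of the 9. SOX15, known from muscle and skin, had values of 5.43, 5.40 and 5.31 on irradiated arrays against 5.39, 5.49 and 5.36 on unirradiated arrays. These also overlapped, with a difference of -0.035 (interval -0.19 to 0.12) whose sign changed with 1 array left out (up to 0.0023). The intervals are not adjusted for the number of genes.

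Small positive differences were common among dim genes in these data. Over the 3 level classes the median log2 difference was 0.067 in the dimmest, 0.046 in the middle and -0.016 in the brightest, and 73.1%, 59.3% and 46.9% of genes had a higher irradiated mean. SOX5 was in the dimmest class, SOX2 in the brightest and the other 7 in the middle one. The part of this tilt in the small SOX differences was not tested.

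**Figure D2:**
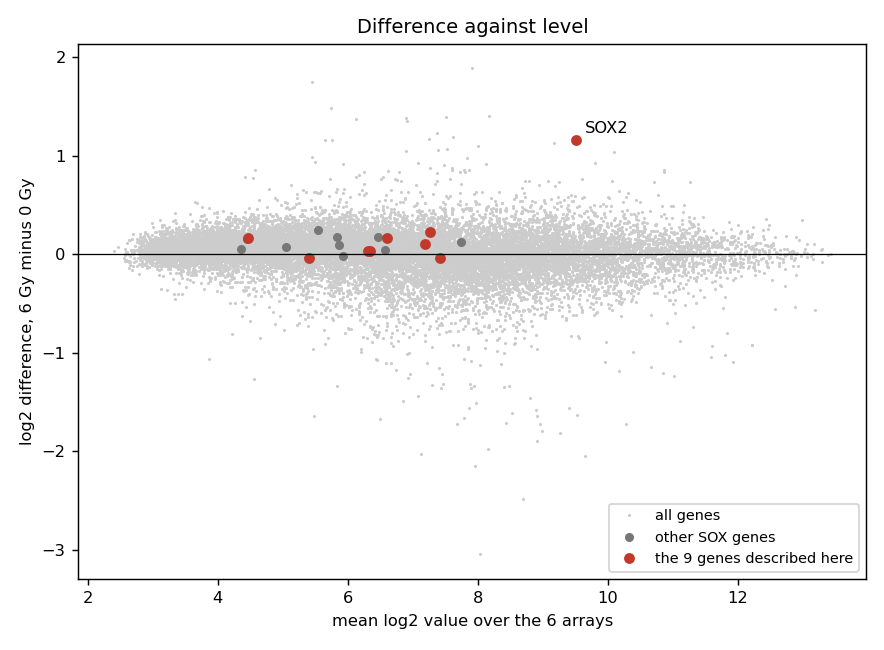
Log2 difference, 6 Gy minus 0 Gy, against the mean log2 value over the 6 arrays, for all 18417 genes (grey dots), the 10 other SOX genes (dark grey) and the 9 SOX genes described here (red). SOX2 lies at 1.16 among bright genes, and the other SOX genes lie within the cloud of all genes, between -0.038 and 0.24.

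The remaining 10 measured SOX genes, which the selection left out, give the rest of the family. None was called: 0 of 10 passed limma at an adjusted p under 0.05 in the full test or under any of the alternative settings, and 3 had an unadjusted p under 0.05. Their median log2 difference was 0.11, where that of all genes was 0.039. The B1 relatives of SOX2, SOX1 and SOX3, differed by 0.24 ± 0.11 (SE, adjusted p 0.166) and 0.13 ± 0.065 (adjusted p 0.214). SOX1 values were 5.46, 5.88 and 5.67 on irradiated and 5.31, 5.56 and 5.40 on unirradiated arrays, which overlap. The B2 genes SOX14 and SOX21, which act as repressors in the developing nervous system, differed by 0.072 and 0.090.

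Among relatives of the other subgroups, the neural crest gene SOX10 differed by 0.18 (adjusted p 0.113 in limma) and SOX8 of the same subgroup by 0.040. The endoderm gene SOX17 differed by 0.18 (adjusted p 0.161 in limma), while SOX7 of the same subgroup differed by -0.019. SOX6, which pairs with SOX5 in cartilage, differed by 0.15 and the testis gene SOX30 by 0.049. All 10 lay between -0.019 and 0.24. Whether SOX2 differs from its relatives in response was not tested, since SOX2 was selected on this contrast.

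**Figure D3:**
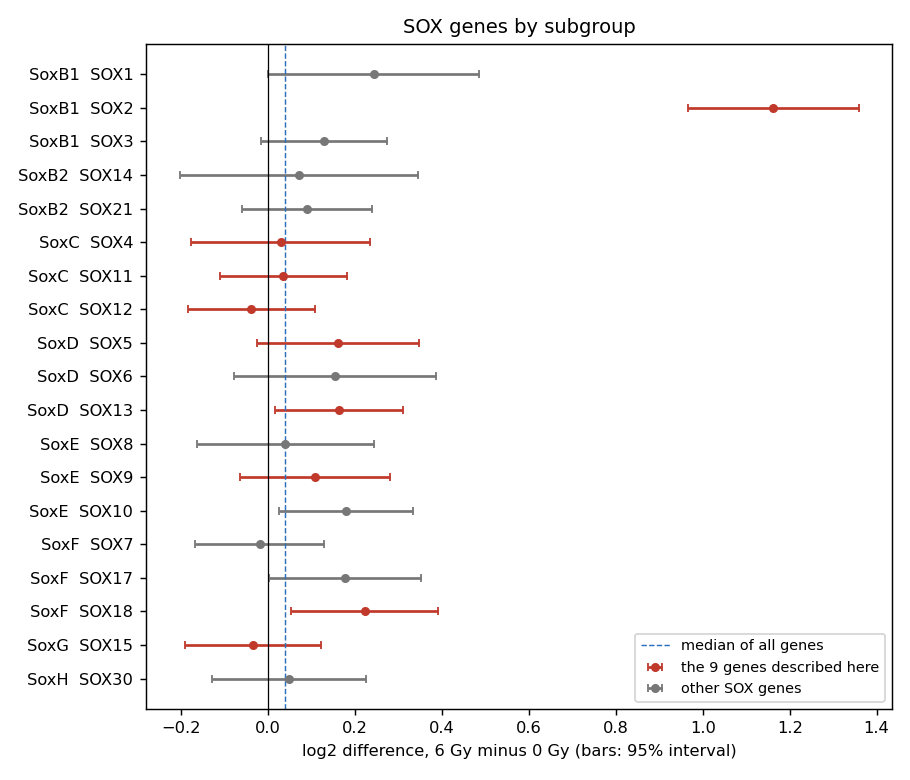
Log2 difference, 6 Gy minus 0 Gy, of the 19 measured SOX genes grouped by subgroup, with 95% intervals from limma; red marks the 9 genes described here, grey the others, and the dashed line the median of all genes (0.039). The SOX2 interval runs from 0.97 to 1.36, and no other point exceeds 0.24.

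The genes nearest to SOX2 on chromosome 3 had lower means after irradiation. SOX2 itself lies inside an intron of the long noncoding RNA gene SOX2-OT, which was not analysed here. Of the 3 nearest measured genes on each side, 1 was called lower and none higher, where 14.5% of all genes were called. CCDC39, which encodes a protein of motile cilia and is the third on the side of lower coordinates, fell 2.01-fold. It stood at 6.39, 6.40 and 6.45 on irradiated arrays, against 7.37, 7.32 and 7.57 on unirradiated arrays (log2 difference -1.01 ± 0.080 SE, limma adjusted p 7.20e-05). The groups lay far apart. FXR1, which encodes an RNA-binding protein, differed by -0.065, and DNAJC19, which encodes a protein of mitochondrial import, by -0.094. A dimmer probe set of DNAJC19 differed by -0.025. Its probe set number lies between those of CCDC39 and DCUN1D1, while the number of the brighter one does not. Which of the 2 reads the locus beside SOX2 was not tested. On the other side ATP11B, a lipid flippase gene, differed by -0.19, DCUN1D1, a neddylation factor gene, by -0.19 and MCCC1, which serves leucine breakdown, by -0.21. The limma adjusted p of these 5 lay between 0.0783 for MCCC1 and 0.537 for FXR1. The 95% intervals of FXR1, DNAJC19 and DCUN1D1 included 0. All 5 are in the brightest level class, where 46.9% of genes had a higher irradiated mean.

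The 5 genes whose centred profile over the 6 arrays lay nearest to that of SOX2 were PLEKHG1, THY1, RAB3A, SERPINB9 and LGALS9, at Euclidean distances of 0.22 to 0.25 where the median gene lay at 1.42. PLEKHG1 encodes a guanine nucleotide exchange factor, THY1 a surface glycoprotein of neurons and stem cells, and RAB3A a GTPase of vesicle release. SERPINB9 encodes an inhibitor of granzyme B and LGALS9 the sugar-binding protein galectin-9. RAB3A had values of 9.79, 9.72 and 9.71 on irradiated arrays against 8.59, 8.65 and 8.58 on unirradiated arrays. All 5 differed by between 1.07 and 1.16 on the log2 scale. With 6 arrays in 2 groups, such likeness says little more than that the group difference is of the same size.

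In the pluripotency network around SOX2, the growth gene MYC was the called gene. Of 28 listed genes 24 were measured, of which 0 were called higher, 1 lower and 23 neither, where 6.35% of all genes were called higher and 8.18% lower. Their median log2 difference was -0.0029, where that of all genes was 0.039. POU5F1, NANOG and TDGF1 were not analysed here, since no probe set names them alone. MYC, which encodes a transcription factor, fell by 0.33 to 12.58 ± 0.045 in irradiated cells, against 12.90 ± 0.017 in unirradiated cells (SD, n = 3), with a limma adjusted p of 0.00918. SALL4 differed by 0.23 (adjusted p 0.116 in limma) and KLF2 by -0.23 (adjusted p 0.0810), and KLF2 was called lower under 3 other settings. SALL4 was called higher without irradiated replicate 2 (adjusted p 0.0457).

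Proteins that bind DNA or chromatin together with SOX factors form the next list. Of 22 listed genes 21 were measured, with 2 higher, 3 lower and 16 not called, beside 14.5% called over all genes, and a median of -0.0081. The POU gene POU3F2, whose product joins SOX2 on neural enhancers, rose by 0.36 ± 0.081 (SE, limma adjusted p 0.0166), with values of 6.19, 6.24 and 6.25 on irradiated arrays against 5.92, 5.96 and 5.71 on unirradiated arrays. MITF, the melanocyte regulator, rose by 0.35 (adjusted p 0.0248). PARP1, the DNA damage sensor, fell by 0.39 (adjusted p 0.00522) and CHD7, a chromatin remodeller that binds SOX2, fell by 0.35 (adjusted p 0.00838). The histone acetyltransferase gene EP300 fell by 0.28 (adjusted p 0.0448). Among uncalled genes NR5A1 differed by 0.24. Leaving out 1 array ended the call of MITF (irradiated replicate 2 or 3, unirradiated replicate 1 or 3, adjusted p 0.0642 to 0.0905) and of EP300 (any array except irradiated replicate 2, 0.0513 to 0.144), and PARP1, CHD7 and POU3F2 passed each time.

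Of 20 genes linked to SOX2 in neural progenitors 19 were measured, with 1 higher, 0 lower and a median of 0.13, where 14.5% of all genes were called. The called gene was VIM, which encodes the intermediate filament vimentin, with a rise of 0.24 (limma adjusted p 0.0415). NES, encoding the progenitor filament nestin, differed by 0.28 (adjusted p 0.0937) and DLX2 by 0.29 (adjusted p 0.219). The VIM call ended without any 1 of the 6 arrays (adjusted p 0.0534 to 0.140), and NES was called without irradiated replicate 2 (0.0347).

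Of 16 SoxC target genes 14 were measured, with 0 higher, 2 lower and a median of -0.081, a count near the 14.5% called over all genes. EZH2, the histone methyltransferase gene that SOX4 activates, fell by 0.56 to 9.72, 9.76 and 9.88 on irradiated arrays, against 10.34, 10.46 and 10.26 on unirradiated arrays (limma adjusted p 0.00157). DICER1, which encodes the enzyme that matures microRNAs, fell by 0.28 (adjusted p 0.0428), a call that ended without any 1 array (0.0572 to 0.149). SEMA3C differed by -0.22 and the B cell gene PAX5 by 0.19.

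All 18 listed cartilage targets of SOX9, SOX5 and SOX6 were measured, with 1 higher and 1 lower, near the 14.5% called over all genes. Their median was 0.075, and 13 of the 18 lay below the median level of all genes. RUNX2, a regulator of bone formation, fell by 0.48 (limma adjusted p 0.00229), and MATN1, which encodes the cartilage protein matrilin-1, rose by 0.36 (adjusted p 0.0259). COL2A1, the collagen gene that SOX9 controls in cartilage, differed by 0.21 (adjusted p 0.0964) and MATN4 by 0.24 (adjusted p 0.0996). Without 1 array the MATN1 call ended for irradiated replicate 3 and each unirradiated array (adjusted p 0.0503 to 0.0943), and MATN4 was called without irradiated replicate 2 (0.0426). Of 6 fibroblast markers, 2 collagen genes, COL1A1 and COL3A1, rose by 0.23 and 0.29 (limma adjusted p 0.0399 and 0.0288). The other 4 were not called, and 5 of the 6 lay below the median level of all genes. The log2 of the summed intensities of the 6 was 7.98 to 8.14 on irradiated and 7.81 to 7.86 on unirradiated arrays. The part of these markers in the cartilage and VIM differences was not tested.

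Of 12 endothelial targets of SOX18, 10 were measured, with 1 higher, 0 lower and a median of 0.12, again near the 14.5% called over all genes. ROBO4, a receptor gene of vessel walls, rose by 0.31 (limma adjusted p 0.0474). EPHB4 differed by 0.22 and CDH5 by 0.18 (adjusted p 0.101 and 0.176). The ROBO4 call ended without irradiated replicate 2 or 3 and without unirradiated replicate 2 or 3 (adjusted p 0.0932 to 0.162). Of 6 endothelial markers 1 was called: PECAM1 rose by 0.70 (limma adjusted p 0.00541), while a dimmer probe set of it differed by -0.052. The log2 of the summed intensities of the 6 markers was 7.56 to 7.60 on irradiated and 7.27 to 7.36 on unirradiated arrays. All 6 lay below the median level of all genes, and their part in the SOX18 difference was not tested.

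**Figure D4:**
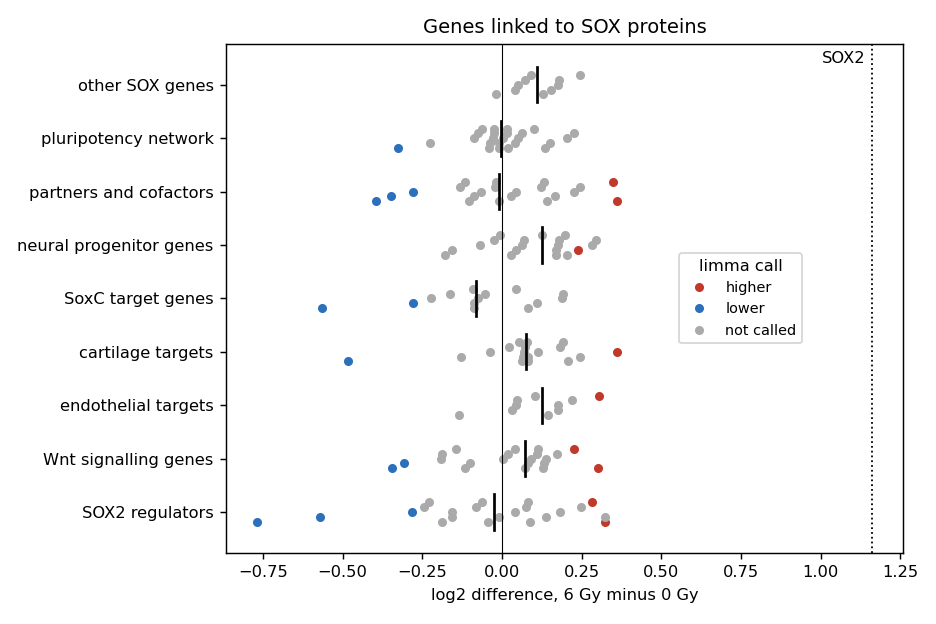
Log2 differences, 6 Gy minus 0 Gy, of genes linked to SOX proteins, 1 row per list; points are genes coloured by limma call (red higher, blue lower, grey not called), black ticks are list medians and the dotted line is SOX2. No gene of these lists comes near the SOX2 difference of 1.16, and list medians lie between -0.081 and 0.13.

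Wnt signalling, which SOX proteins modulate by binding beta-catenin or its TCF partners, was covered by 22 listed genes. Of these 21 were measured, with 2 higher, 2 lower and a median of 0.071, where 14.5% of all genes were called. TCF7L2, a TCF factor gene, fell by 0.34 (limma adjusted p 0.0192) and the receptor gene FZD3 fell by 0.31 (adjusted p 0.0328). The Wnt target genes SP5 and CCND1 (cyclin D1) rose by 0.30 and 0.23 (adjusted p 0.0366 and 0.0469). AXIN1 and LRP6 each differed by -0.19. Each call ended with some arrays left out: TCF7L2 without irradiated replicate 1 or unirradiated replicate 2 or 3 (adjusted p up to 0.0772), FZD3 without irradiated replicate 1 or any unirradiated array (up to 0.107), SP5 without any array except irradiated replicate 2 (up to 0.117) and CCND1 without any 1 array (up to 0.132).

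Of 23 genes that are reported to control SOX2 transcription or protein 22 were measured, with 2 higher, 3 lower, 17 not called and a median of -0.027, where 14.5% of all genes were called. DET1, which encodes an adaptor of a ubiquitin ligase, fell 1.70-fold. It stood at 6.19, 6.28 and 6.12 on irradiated arrays, against 6.91, 7.07 and 6.92 on unirradiated arrays, with a log2 difference of -0.77 ± 0.076 (SE) and a limma adjusted p of 2.40e-04. Its dimmer probe set differed by -0.55. CDKN1B, encoding the cell cycle inhibitor p27, fell by 0.57 (adjusted p 0.00555). The groups of both genes did not overlap.

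PTCH1, the Hedgehog receptor gene, fell by 0.28 (limma adjusted p 0.0287). UBE2S, a ubiquitin-conjugating enzyme gene, rose by 0.32 (adjusted p 0.0316), and the retinoblastoma gene RB1 rose by 0.28 (adjusted p 0.0342). A dimmer probe set of UBE2S differed by 0.25. The numbers of the 2 UBE2S probe sets lie far apart, and which of them reads the UBE2S gene was not tested. Their mean differed by 0.29 (limma adjusted p 0.0476). The Hedgehog genes GLI1 and SMO differed by 0.32 and 0.25 (adjusted p 0.158 and 0.117). Whether any gene of this list had a part in the SOX2 difference was not tested. DET1 and CDKN1B passed without any 1 array. The calls that ended were those of PTCH1 (irradiated replicate 1 or 2, unirradiated replicate 1 or 2, adjusted p up to 0.113), UBE2S (irradiated replicate 1 or 2, unirradiated replicate 2 or 3, up to 0.118) and RB1 (any array except irradiated replicate 3, up to 0.102).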

How the data were processed

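Total RNA from 3 irradiated and 3 unirradiated samples was hybridised to arrays, and the authors deposited 33297 values per array. The deposited values were read as log2 intensities, from their range; how they were normalized is not stated in the labels or headers. Array quartiles are nearly equal, so differences are relative to the bulk of transcripts. Of the probe sets, in GEO's platform annotation, 19460 list 1 gene symbol, 1754 several and 12083 none. The brightest probe set of each gene was used, giving 18417 genes. Promoters and gene order come from RefSeq (GRCh38.p14).

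The main comparison used limma 3.58.1 (lmFit, then eBayes; R 4.3.3) on the 6 arrays, without covariates or a level filter, and all tests are two-sided. The script was checked on simulated data. A gene is called where its Benjamini-Hochberg adjusted p over all genes is under 0.05; "rose" and "fell" are used of these. An exact permutation test of 3 against 3 cannot go below 0.1, so none was run. Intervals are limma's 95% intervals. The members, lists and naming rule were chosen with earlier results of these data known. Besides all SOX genes, the text names up to 8 called and 2 uncalled members of each list by smallest p and largest difference, the neighbours of SOX2 and the 5 nearest profiles. Alternatives were a replicate block, each array left out, quantile normalization, array medians subtracted, the dimmest of 3 level classes left out, a robust prior with an intensity trend, array weights and the mean of all probe sets. Tables and figures used Python 3.11.15, pandas 2.3.3, scipy 1.17.1 and matplotlib 3.10.9.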

Additional observations from a re-analysis of the deposited data

How the results depend on the processing

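The number of genes called, 2676, lay between 1471 and 2184 with 1 array left out, and it was 1584 without unirradiated replicate 1 and 1471 without unirradiated replicate 2. A fit with a replicate block called 1919, and the remaining settings called 2705 to 3237. With quantile normalization 1431 genes were called higher and 1369 lower, against 1169 higher and 1507 lower in the main fit. Same-numbered samples deviated with correlations of -0.042, 0.10 and -0.11, and differently numbered ones with -0.11 to 0.15. The correlations thus show no sign of pairing, but with 3 arrays a group they cannot exclude it. Under the block the calls of EP300, VIM, DICER1, ROBO4, FZD3, SP5, CCND1, PTCH1 and UBE2S ended. The SOX2 difference of 1.16 lay between 1.08 and 1.25 with an array left out and between 1.13 and 1.19 under the other settings. SOX4 ranged from -0.061 to 0.095, SOX12 from -0.068 to 0.0025 and SOX15 from -0.067 to 0.0023, so these 3 have no settled sign. SOX5 has no value without the dimmest level class. Subtracting array medians ended the calls of VIM, ROBO4, CCND1 and UBE2S, and quantile normalization those of DICER1 and FZD3. The ROBO4 call also ended with array weights. KLF2 was called lower with array medians subtracted, without the dimmest class and with the intensity trend (adjusted p 0.0421 to 0.0480 in limma). ATP11B was called lower with the intensity trend, and MCCC1 with array medians subtracted and without the dimmest class. The regulators of SOX2 counted 8 calls, against 5, with the intensity trend. No detection calls were given, so signal over background limits the dim SOX genes, SOX5 first among them, by an unknown amount.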
